A study of Arabidopsis thaliana with 12 samples.

Results

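GID1A, GID1B and GID1C are the 3 gibberellin receptor genes of Arabidopsis thaliana. The genes were picked with earlier results of these data known, which the p-values below do not account for. Members were chosen by annotation, as the probe sets assigned to each of these single genes. Each gene had 1 such probe set, so the 3 genes were 3 of 13286 genes read by a probe set of 1 gene: GID1A (AT3G05120) by 259302_at, GID1B (AT3G63010) by 251200_at and GID1C (AT5G27320) by 246782_at. RNA of whole 9-day-old seedlings was hybridised to 12 arrays, 2 per group and 1 in each of 2 lots. Of the 6 groups, 4 carried LEAFY-GR, in which the floral regulator LEAFY is fused to the hormone-binding domain of a glucocorticoid receptor. These were sampled at 8 h after dexamethasone plus cycloheximide, cycloheximide alone, dexamethasone alone, or mock treatment. The other groups were untreated 35S::LFY seedlings, in which the viral 35S promoter drives LFY constitutively, and untreated Landsberg erecta seedlings. Mock-treated seedlings therefore carry the fusion too. The promoter and parental strain of the LEAFY-GR line, the number of lines and the pooling of seedlings are not given in the sources used here, and no group without LEAFY-GR received dexamethasone or cycloheximide.

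Gibberellin promotes germination, stem elongation and flowering. GID1 proteins are soluble nuclear receptors related to hormone-sensitive lipases: the hormone binds in a pocket, the N-terminal arm closes over it, and the closed receptor binds DELLA proteins, which repress growth. The F-box protein SLY1 then directs DELLA proteins to degradation. The Arabidopsis receptors overlap in function, and loss of all of them gives severe dwarfs. Dexamethasone lets the LEAFY-GR fusion act in the nucleus, and cycloheximide blocks protein synthesis, so a response that persists with cycloheximide can occur without newly made protein.

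Signals are linear intensities, already scaled by the authors to nearly the same trimmed mean on every array, so every change is relative to the rest of that array's signal. Changes were computed on the log2(intensity + 10) scale, which understates the change of dim probe sets, and were tested with limma over 22746 probe sets. A probe set was called at a Benjamini-Hochberg adjusted p under 0.05. Array medians lay between 49.8 and 69.4. Nothing in the labels tells whether both arrays of a group stem from seedlings grown apart, so the p-values cover only the spread among these arrays, possibly a technical one. With 2 arrays per group, precision is limited throughout. The share of all probe sets whose array ranges did not overlap was not counted. A lack of overlap therefore describes a gene's values and does not set that gene apart. RNA of whole seedlings was measured, so fewer cells of a type and less RNA per cell cannot be told apart.

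GID1A had low signals on every array with cycloheximide. It read 79.2 and 54.1 with dexamethasone plus cycloheximide, 59.9 and 67.9 with cycloheximide, 205.1 and 213.4 with dexamethasone, and 154.5 and 174.4 in mock-treated seedlings (lot 1 and lot 2 in turn). It read 222.3 and 181.0 in 35S::LFY and 193.1 and 202.0 in Landsberg erecta. All 4 arrays with cycloheximide thus lay below all 8 arrays without it. From highest to lowest the group means were 209.3 ± 5.9 for dexamethasone, 201.7 ± 29.2 for 35S::LFY, 197.6 ± 6.3 for Landsberg erecta, 164.5 ± 14.1 for mock, 66.7 ± 17.7 for dexamethasone plus cycloheximide and 63.9 ± 5.7 for cycloheximide (SD, n = 2 each). Array ranges overlapped between dexamethasone and 35S::LFY, between 35S::LFY and Landsberg erecta, and between the 2 cycloheximide groups, and did not overlap for the other neighbours.

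GID1B ran the other way and had the widest range of the 3 genes. Its signal was 338.7 and 467.2 with dexamethasone plus cycloheximide, 317.6 and 525.3 with cycloheximide, 107.1 and 94.9 with dexamethasone, and 83.4 and 103.3 in mock. In 35S::LFY it was 45.2 and 53.4, and in Landsberg erecta 34.3 and 41.0. The arrays formed 3 steps that did not overlap: 317.6 to 525.3 on the 4 LEAFY-GR arrays with cycloheximide, 83.4 to 107.1 on the 4 LEAFY-GR arrays without it, and 34.3 to 53.4 on the 4 untreated arrays. Ordered by mean, the groups were cycloheximide (421.5 ± 146.9), dexamethasone plus cycloheximide (403.0 ± 90.9), dexamethasone (101.0 ± 8.6), mock (93.4 ± 14.1), 35S::LFY (49.3 ± 5.8) and Landsberg erecta (37.7 ± 4.7). Neighbours overlapped within the top step and within the middle step, while the ranges of 35S::LFY and Landsberg erecta did not overlap.

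GID1C was lowest with cycloheximide, as GID1A was. It read 38.9 and 22.6 with dexamethasone plus cycloheximide, 32.6 and 33.2 with cycloheximide, 89.7 and 100.6 with dexamethasone, and 78.5 and 116.7 in mock. It read 48.8 and 58.8 in 35S::LFY and 70.5 and 71.7 in Landsberg erecta. The 4 cycloheximide arrays lay below the other 8, and unlike GID1A the untreated arrays lay between them and the LEAFY-GR arrays without cycloheximide. By mean the order was mock (97.6 ± 27.0), dexamethasone (95.2 ± 7.7), Landsberg erecta (71.1 ± 0.8), 35S::LFY (53.8 ± 7.1), cycloheximide (32.9 ± 0.4) and dexamethasone plus cycloheximide (30.8 ± 11.5). Mock and dexamethasone overlapped, as did the 2 cycloheximide groups, and the other neighbours did not.

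**Figure D1:**
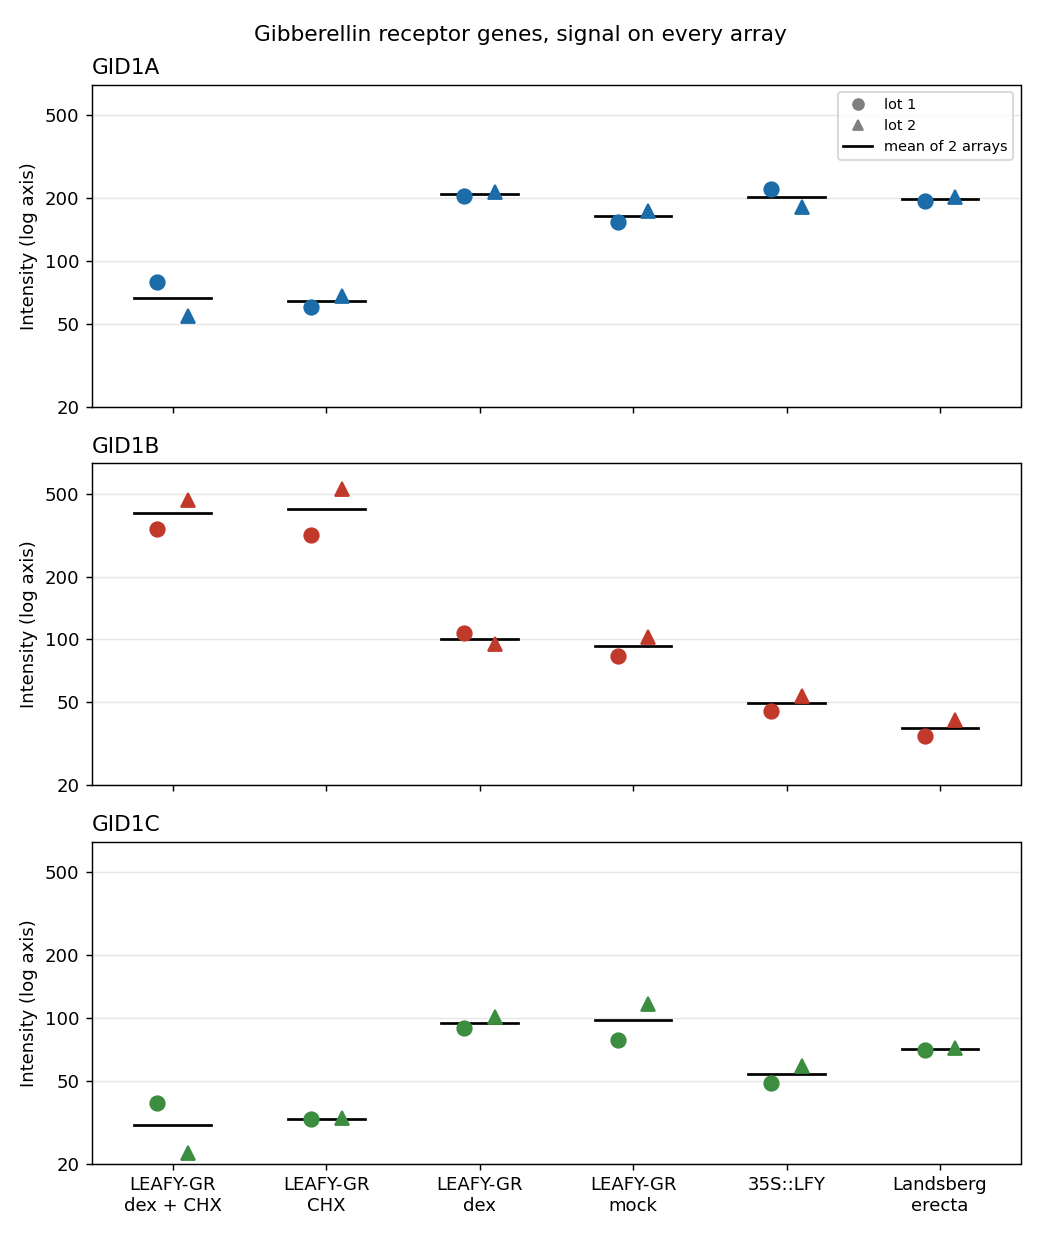
Signal of GID1A, GID1B and GID1C on each of the 12 arrays, as linear intensity on a log axis, by group; circles are lot 1, triangles lot 2, bars the mean of 2 arrays, and CHX is cycloheximide. Cycloheximide arrays are lowest for GID1A (54.1 to 79.2) and GID1C (22.6 to 38.9) and highest for GID1B (317.6 to 525.3); heights are not comparable between panels, which hold different probe sets.

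Cycloheximide lowered GID1A and GID1C and raised GID1B, with and without dexamethasone. Without dexamethasone, GID1B had 421.5 ± 146.9 with cycloheximide and 93.4 ± 14.1 in mock, a ratio of 4.51 and a log2 change of 2.03 ± 0.25 (SE, limma adjusted p = 3.53e-05). GID1A had 63.9 ± 5.7 with cycloheximide and 164.5 ± 14.1 in mock, which is 2.57-fold lower, with a log2 change of -1.24 ± 0.19 (adjusted p = 0.000209). GID1C had 32.9 ± 0.4 with cycloheximide and 97.6 ± 27.0 in mock, which is 2.97-fold lower, with a log2 change of -1.30 ± 0.27 (adjusted p = 0.00198). Each change kept its sign across the lots: 1.81 and 2.24 for GID1B, -1.23 and -1.24 for GID1A, and -1.05 and -1.55 for GID1C. Calls were common in this comparison, with 17.2% of all probe sets called higher and 25.6% called lower, so a call alone sets none of the 3 genes apart. The size of the change placed GID1B above 94.3% of probe sets, while 12.4% lay below GID1A and 11.5% below GID1C.

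The same comparison in dexamethasone-treated seedlings used other arrays and gave like values. GID1B had 403.0 ± 90.9 with dexamethasone plus cycloheximide and 101.0 ± 8.6 with dexamethasone, a ratio of 3.99 and a log2 change of 1.88 ± 0.25 (limma adjusted p = 6.93e-05). GID1A was 3.14-fold lower with both agents (66.7 ± 17.7 against 209.3 ± 5.9), a log2 change of -1.54 ± 0.19 (adjusted p = 4.21e-05). GID1C was 3.09-fold lower with both agents (30.8 ± 11.5 against 95.2 ± 7.7), a log2 change of -1.40 ± 0.27 (adjusted p = 0.00132). On all cycloheximide arrays GID1C (22.6 to 38.9) lay below the array median, and no detection calls came with the data. How much of that signal was background is not known. In this comparison 14.4% of all probe sets were called higher and 26.2% lower, and the median change of all probe sets was -0.17. With arrays scaled to the hybridisation controls, that median was -0.37 here and -0.28 for cycloheximide against mock. Relative to it, the changes were 1.98 for GID1B, -1.43 for GID1A and -1.27 for GID1C here, and 1.98, -1.28 and -1.32 for cycloheximide against mock.

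The split of all calls into higher and lower depended on scaling, and the calls of the 3 genes did not under any scaling tried. Against mock, 3909 probe sets were called higher and 5818 lower, or 2639 and 7003 when scaled by the hybridisation controls. In dexamethasone-treated seedlings the split was 3280 higher and 5959 lower, 3984 and 4378 with equal medians, and 2378 and 7027 with the hybridisation controls. All 3 genes kept their direction and their call in both cycloheximide comparisons under every alternative tried that gave a test, with a highest adjusted p of 0.0304, for GID1C against mock without the lot 2 mock array.

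Whether 2 receptor genes responded unequally was tested on the within-array difference of their log2 values, comparing the 4 cycloheximide arrays with the 4 other LEAFY-GR arrays. The difference of GID1A from GID1B changed by -3.34, and that of GID1B from GID1C by 3.30. Each had an exact two-sided permutation p of 0.0286, the smallest that 70 arrangements can give, and 0.0857 after adjustment over 6 tests, the lowest adjusted value possible when 2 of the 6 reach that smallest p, so 0.05 was out of reach for this outcome. GID1A and GID1C differed in their change by -0.04 (exact p = 0.8, adjusted p = 0.829). In the limma fit the 95% intervals of the change against mock were 1.49 to 2.56 for GID1B, -1.65 to -0.83 for GID1A and -1.90 to -0.71 for GID1C, so that of GID1B lay apart from both others. The remaining permutation tests compared the 4 LEAFY-GR arrays with dexamethasone and the 4 without it. GID1A from GID1C changed by 0.24 (exact p = 0.0571, adjusted p = 0.114). GID1A from GID1B changed by 0.15 (exact p = 0.743, adjusted p = 0.829) and GID1B from GID1C by 0.09 (exact p and adjusted p = 0.829). Each side held arrays with and without cycloheximide, and the arrangements were not kept within cycloheximide. The SD within a side was 2.01 and 1.90 for GID1A from GID1B, and 1.94 on both sides for GID1B from GID1C. That spread holds the opposite cycloheximide changes, so the tests with GID1B cannot decide whether dexamethasone responses differed.

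**Figure D2:**
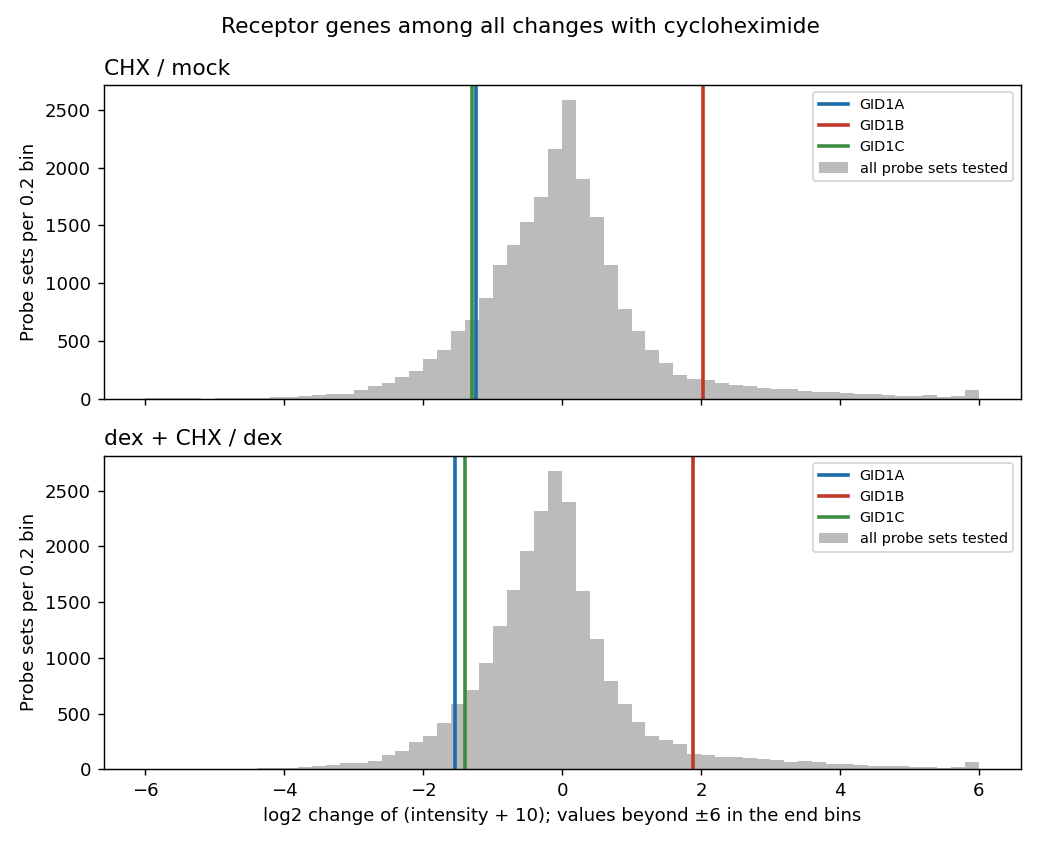
Distribution of the log2 change of all 22746 probe sets tested, in bins of 0.2, for cycloheximide against mock (top) and dexamethasone plus cycloheximide against dexamethasone (bottom), with the receptor genes as vertical lines. GID1B stands in the upper tail (2.03 and 1.88), and GID1A (-1.24 and -1.54) and GID1C (-1.30 and -1.40) in the lower shoulder.

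Sums of green tissue and root markers were lower with cycloheximide, without overlap between arrays, while those of flower and meristem markers overlapped. The 2 measured markers of green tissue (LHCB4.1 and RCA, of 8 listed) summed to 8543.1 to 10498.5 on the cycloheximide arrays and to 11083.9 to 15797.2 on the other LEAFY-GR arrays. The 2 measured root markers (EXPA7 and SCN1, of 8) summed to 222.4 to 272.5 and 328.7 to 464.6 in the same order, and the 3 measured flower and meristem markers (SPL, CLV3 and LAS, of 8) to 63.2 to 93.0 and 58.0 to 97.9. By gene, only LHCB4.1 of the green markers and only SCN1 of the root markers separated these arrays. RCA read 4905.4 to 6687.2 on the cycloheximide arrays and 5695.9 to 8376.9 on the other LEAFY-GR arrays. EXPA7 read 34.2 to 43.2 and 37.6 to 68.0 in the same order. No marker was at 0 on any array, though SPL and CLV3 stayed between 1.7 and 6.4 throughout. The flower and meristem sums were therefore mostly the signal of LAS, which read 36.8 to 86.5 over all arrays. Of 6 pairs of control probe sets that read RNA quality as a 3′ over 5′ signal ratio, 1 separated the cycloheximide arrays from the other LEAFY-GR arrays. This was a pair for GAPDH, whose ratio was 0.978 to 1.28 with cycloheximide and 1.36 to 1.58 on the other LEAFY-GR arrays, while the other GAPDH pair gave 1.01 to 1.11 and 0.974 to 1.28. Their part in the changes of the receptor genes was not tested.

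No receptor gene was called by limma in any of the 3 comparisons of active or overexpressed LEAFY with its control, and 0 of 3 had an unadjusted p under 0.05 in each. With dexamethasone against mock, GID1A had the largest change, 0.33 ± 0.19 log2 (209.3 ± 5.9 against 164.5 ± 14.1, limma adjusted p = 0.753), with 0.39 in lot 1 and 0.28 in lot 2. GID1B had 0.11 ± 0.25 and GID1C -0.01 ± 0.27, and their changes differed in sign between the lots. The median of the 3 genes was 0.11 and that of all probe sets 0.07, and 0.475% of all probe sets were called. The 95% intervals were -0.08 to 0.75 for GID1A, -0.43 to 0.65 for GID1B and -0.61 to 0.58 for GID1C, so changes of 1 log2 unit or more lay outside all 3.

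With cycloheximide present, no receptor gene was called for dexamethasone. GID1A changed by 0.04 ± 0.19 log2 (66.7 ± 17.7 against 63.9 ± 5.7 with cycloheximide alone), GID1B by -0.04 ± 0.25 and GID1C by -0.10 ± 0.27 (limma adjusted p = 1 for each). All 3 were higher in lot 1 (0.35, 0.09 and 0.20) and lower in lot 2 (-0.28, -0.17 and -0.41), and 0.193% of all probe sets were called. The 95% intervals ran from -0.38 to 0.45 for GID1A, from -0.58 to 0.50 for GID1B and from -0.70 to 0.49 for GID1C. The response to dexamethasone with cycloheximide minus that without it was -0.30 ± 0.27 for GID1A, -0.15 ± 0.35 for GID1B and -0.09 ± 0.38 for GID1C (adjusted p = 0.972, 0.993 and 0.996 in turn), in a comparison that called 0.0308% of all probe sets. For GID1A this difference was -0.04 in lot 1 and -0.56 in lot 2, and it was -0.06 without the lot 2 array and -0.53 without the lot 1 array of dexamethasone plus cycloheximide.

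Constitutive LFY gave differences of opposite sign for GID1B and GID1C, neither of which was called. GID1B had 49.3 ± 5.8 in 35S::LFY and 37.7 ± 4.7 in Landsberg erecta, a log2 change of 0.32 ± 0.25 (limma adjusted p = 1) with 0.32 in lot 1 and 0.31 in lot 2. GID1C had 53.8 ± 7.1 in 35S::LFY and 71.1 ± 0.8 in Landsberg erecta, a log2 change of -0.35 ± 0.27 (adjusted p = 1), with -0.45 and -0.25 by lot. GID1A had 0.02 ± 0.19, with 0.19 in lot 1 and -0.15 in lot 2. The 95% intervals of -0.22 to 0.85 for GID1B and -0.94 to 0.24 for GID1C held 0, and 0.295% of all probe sets were called.

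**Figure D3:**
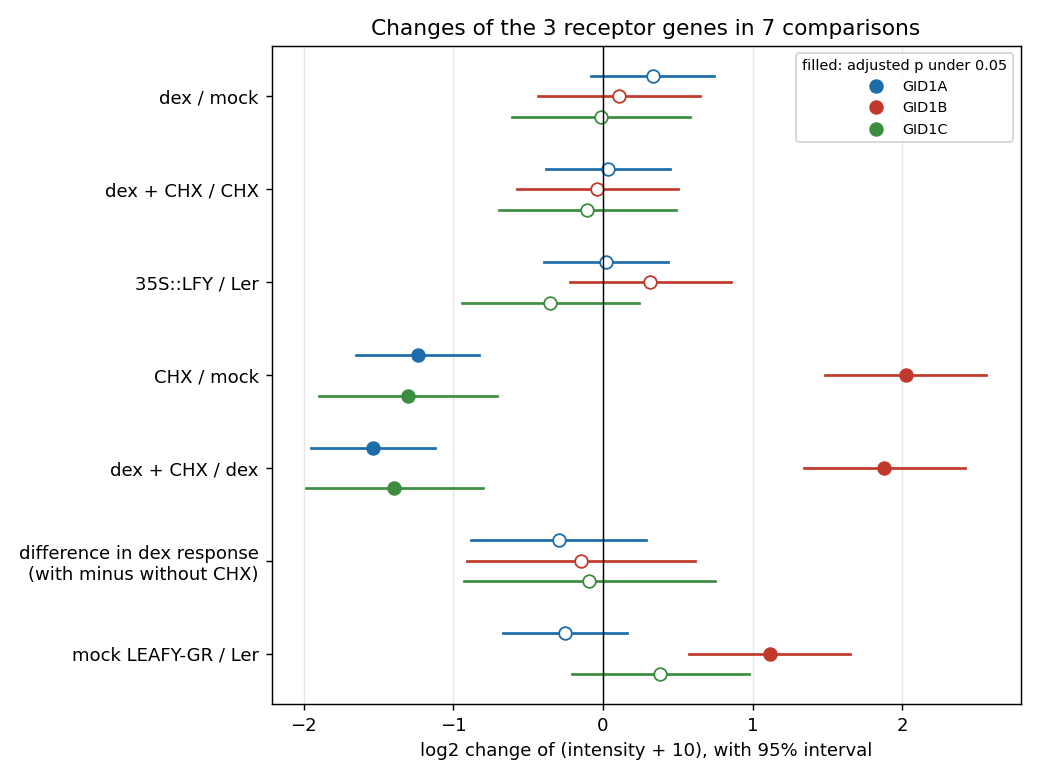
Log2 change of GID1A, GID1B and GID1C with its 95% interval from the limma fit in 7 comparisons, each the first-named group over the second; filled points were called, CHX is cycloheximide and Ler is Landsberg erecta. All 3 genes were called in both cycloheximide comparisons and GID1B in mock-treated LEAFY-GR against Landsberg erecta, and all intervals of the LEAFY comparisons hold 0.

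Mock-treated LEAFY-GR seedlings differed from Landsberg erecta in GID1B. Its signal was 83.4 and 103.3 in mock, against 34.3 and 41.0 in Landsberg erecta, a ratio of 2.48 and a log2 change of 1.11 ± 0.25 (limma adjusted p = 0.0167), with 1.08 in lot 1 and 1.15 in lot 2. GID1C had 0.38 ± 0.27 (97.6 ± 27.0 against 71.1 ± 0.8, adjusted p = 0.501) and GID1A -0.25 ± 0.19 (164.5 ± 14.1 against 197.6 ± 6.3, adjusted p = 0.537), neither of them called. GID1C was at 0.64 without the lot 1 mock array and at 0.13 without the lot 2 one. GID1A turned to 0.03 with scaling to the hybridisation controls. In this comparison 4% of all probe sets were called higher and 3.82% lower, 910 and 869 probe sets. The change of GID1B lay above that of 97.5% of all probe sets tested. The split was 1094 and 389 after equalising the medians and 1069 and 216 after scaling by hybridisation controls, where GID1B was at 1.27 and 1.38 (adjusted p = 0.00345 and 0.0056).

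The GID1B call against Landsberg erecta was lost without the lot 2 mock array (log2 change 0.97, adjusted p = 0.118), without the lot 1 Landsberg erecta array (1.01, 0.124) or the lot 2 one (1.22, 0.0691), and with a pseudocount of 50 (0.71, 0.0592). Mock seedlings carried the fusion and were handled for treatment, while Landsberg erecta seedlings were untreated. The parental strain of the LEAFY-GR line is not given either. Fusion, handling and any difference in strain cannot be told apart here. The 3′ over 5′ ratio was lower in mock than in Landsberg erecta, without overlap, for 5 of the 6 pairs of control probe sets. For GAPDH it was 1.52 and 1.36 in mock and 1.71 and 2.13 in Landsberg erecta for one pair of control probe sets, and 1.11 and 0.974 against 1.27 and 1.296 for the other. The root marker EXPA7 read 45.2 and 37.6 in mock and 75.1 and 95.8 in Landsberg erecta (log2 change -0.89 ± 0.31, limma adjusted p = 0.12, not called). The other measured root marker, SCN1, read 283.5 and 427.0 in mock and 363.0 and 365.3 in Landsberg erecta (-0.06 ± 0.17, limma adjusted p = 0.907). Summed root markers were 328.7 to 464.6 in mock and 438.1 to 461.1 in Landsberg erecta, and the sums of green tissue (11083.9 to 15797.2 and 14220.6 to 14724.4) and of flower and meristem markers (58.0 to 76.5 and 49.6 to 86.6) overlapped too. The part of RNA quality and of tissue makeup in this difference was not tested.

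Of 50 other genes of gibberellin synthesis, inactivation and response on the list, 6 were read by a probe set of 1 gene: SLY1, SLY2, SPY, SEC, XERICO and AT1G22690, the last without a symbol in the reference table. The 14 synthesis genes, 11 inactivation genes and 5 DELLA genes had 0 such probe sets and were not analysed here. The annotation used listed 14016 of the 22810 probe sets. Whether unlisted probe sets read these genes is therefore not known from it. With cycloheximide against mock, 1 of the 6 rose and 3 fell (17.2% and 25.6% of all probe sets), with a median of -0.47 for the 6 and -0.03 for all probe sets. With dexamethasone plus cycloheximide against dexamethasone, 1 rose and 4 fell (14.4% and 26.2% of all probe sets), with a median of -0.83 for the 6 and -0.17 for all probe sets.

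SLY1, the F-box protein that targets DELLA proteins, moved as GID1A and GID1C did. It read 47.1 and 73.7 with dexamethasone plus cycloheximide, 42.5 and 59.0 with cycloheximide, 171.5 and 190.8 with dexamethasone, and 133.5 and 163.4 in mock. All 4 cycloheximide arrays lay below the others, and SLY1 fell by 1.39 ± 0.22 log2 against mock (limma adjusted p = 0.000323) and by 1.47 ± 0.22 against dexamethasone (adjusted p = 0.000232). SLY2, also called SNEEZY, is a related F-box protein, and its values against the same controls were -0.28 ± 0.33 and -0.33 ± 0.33 (adjusted p = 0.545 and 0.474).

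SEC, an O-GlcNAc transferase that modifies DELLA proteins, was the 1 list gene that rose. Its signal was 271.9 and 286.8 with dexamethasone plus cycloheximide, 324.6 and 249.2 with cycloheximide, 146.2 and 145.4 with dexamethasone, and 125.2 and 112.8 in mock. The cycloheximide arrays lay above all others of the LEAFY-GR line, with log2 changes of 1.19 ± 0.19 against mock (adjusted p = 0.000275) and 0.89 ± 0.19 against dexamethasone (limma adjusted p = 0.00234). SPY, the O-fucosyltransferase that activates DELLA proteins, had -0.29 ± 0.15 against mock (adjusted p = 0.153) and fell by 0.78 ± 0.15 against dexamethasone (adjusted p = 0.00147). The difference between these 2 changes of SPY was -0.49 ± 0.22 and was not called (adjusted p = 0.972).

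XERICO, a RING-type protein gene that DELLA proteins activate, fell by 0.65 ± 0.16 log2 with cycloheximide against mock (77.5 and 87.9 against 147.5 and 123.4, limma adjusted p = 0.00674). With dexamethasone present it fell by 0.88 ± 0.16 (71.3 and 79.9 against 152.3 and 141.9, adjusted p = 0.000961). AT1G22690 fell by 0.99 ± 0.23 and by 1.13 ± 0.23 in these comparisons (adjusted p = 0.00426 and 0.00188). None of the 6 genes was called with limma for dexamethasone with or without cycloheximide, for 35S::LFY, or for mock against Landsberg erecta. An unadjusted p under 0.05 was found for 0 of 6 with dexamethasone against mock, 1 with cycloheximide present (SPY, -0.44 ± 0.15), 1 with 35S::LFY (AT1G22690, -0.52 ± 0.23) and 2 in mock against Landsberg erecta (SPY, 0.36 ± 0.15, and SEC, -0.43 ± 0.19). Their medians were 0.16 with dexamethasone against mock, 0.01 with cycloheximide present and 0.02 with 35S::LFY.

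**Figure D4:**
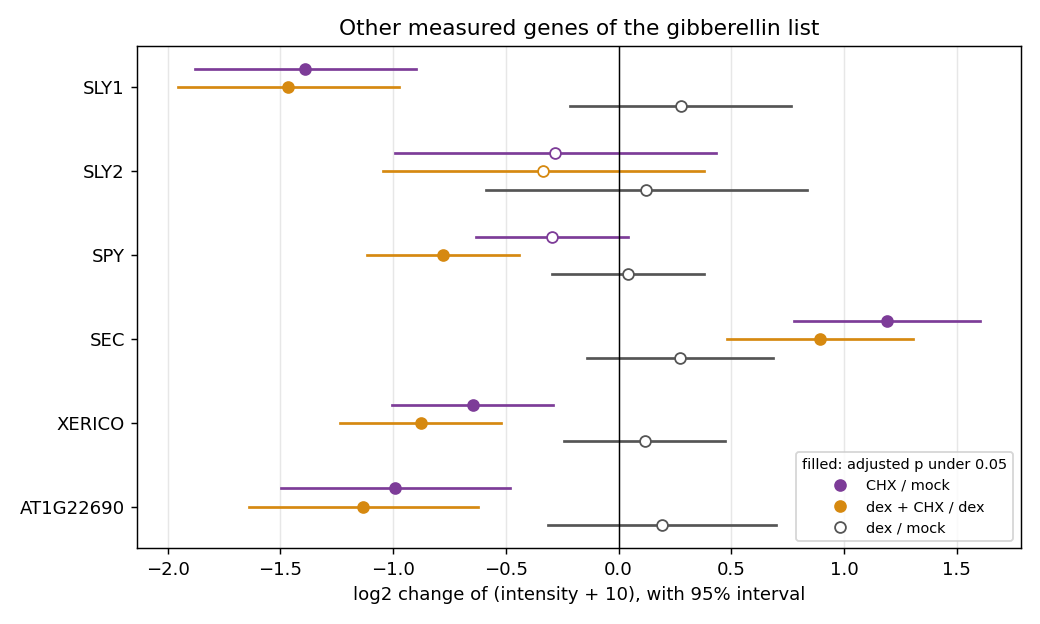
Log2 change, with its 95% interval from the limma fit, of the 6 other measured genes of the gibberellin list for cycloheximide against mock, dexamethasone plus cycloheximide against dexamethasone, and dexamethasone against mock; filled points were called. SEC is to the right of 0 with cycloheximide (1.19 and 0.89), SLY1, XERICO and AT1G22690 are to the left, and no dexamethasone point is filled.

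Likeness to each receptor gene was measured as Pearson's r of log2 values over the 12 arrays, among 1041 other probe sets of 1 gene with a symbol and a mean signal of at least 50. The arrays fall into those with and without cycloheximide, which dominates r, so r over the 8 arrays without cycloheximide is given too. Those 8 arrays hold a further split, into LEAFY-GR and untreated seedlings, and r over them spans it. Both values of r describe these arrays, and no test was made. For GID1B the closest were EXO, a cell growth gene that responds to brassinosteroid (0.992, and 0.963 without cycloheximide), and the immune receptor-like cytoplasmic kinase gene BIK1 (0.988 and 0.944). The tetraspanin gene TET8 (0.980 and 0.859), SRC2 (0.979 and 0.927) and cwINV6 (0.978 and 0.832) followed. Log2 changes of mock-treated LEAFY-GR against Landsberg erecta were 1.48 for EXO, 1.57 for BIK1 and 1.31 for SRC2. For TET8, cwINV6 and GID1B itself they were 0.74, 0.44 and 1.11.

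For GID1A the closest were cICDH, a cytosolic isocitrate dehydrogenase (0.984, and 0.723 without cycloheximide), the methionine chain elongation gene BCAT4 (0.984 and 0.707), the tubulin gene TUB6 (0.981 and 0.482), ACYB-2 (0.980 and 0.555) and the ATP-citrate lyase gene ACLB-1 (0.977 and 0.502). For GID1C the closest were PHOS34 (0.954, and 0.915 without cycloheximide), GME, a GDP-mannose epimerase of ascorbate synthesis (0.952 and 0.849), the ubiquitin-conjugating enzyme gene UBC28 (0.950 and 0.885), the F-box gene SKP2A (0.938 and 0.761) and MCCB, a subunit of the leucine-degrading enzyme methylcrotonyl-CoA carboxylase (0.938 and 0.803).

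Between the receptor genes themselves, r was 0.842 for GID1A with GID1C, -0.923 for GID1A with GID1B and -0.687 for GID1B with GID1C over the 12 arrays. Over the 8 arrays without cycloheximide it was -0.253, -0.244 and 0.765 in the same order. Without cycloheximide, GID1B and GID1C were thus the pair with a positive r. Both were higher in LEAFY-GR seedlings (83.4 to 107.1 and 78.5 to 116.7) than in untreated seedlings (34.3 to 53.4 and 48.8 to 71.7). This r spans that split of the 8 arrays. Between the 2 untreated groups the genes differed in opposite directions (0.32 and -0.35 log2 in 35S::LFY against Landsberg erecta, neither called).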

How the data were processed

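The authors deposited 1 linear intensity per probe set and array for 22810 probe sets, with no detection calls, made by software not given in the sources used here. Judging from the values they were scaled, since each array's mean, trimmed by 2% at both ends, was 150.01 to 150.02, and no further normalisation was applied. Probe sets were named through the platform annotation and RefSeq genes (TAIR10.1, names only), which gave 13436 probe sets of 1 gene. That annotation listed 14016 probe sets, and the others could not be assigned to a gene, including any for unmeasured list genes or markers. The 64 control probe sets were left out, leaving 22746. In R 4.3.3, limma 3.58.1 fitted 1 mean per group to log2(intensity + 10) on all 12 arrays (6 residual and 5.3 prior degrees of freedom, intensity trend). P-values were Benjamini-Hochberg adjusted over all tested probe sets, and calls made at 0.05. The fit was tested on simulated data. Intervals are 95% intervals of that fit. Figures used Python 3.11.15 and matplotlib 3.10.9.

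Lot numbers pair arrays across groups because the labels give them as a shared batch. Differences between lots correlated between groups at 0.0488 to 0.334 (15 pairs of groups). The lot was a block in an alternative fit. Other alternatives were pseudocounts of 1 and 50, 3 scalings, a filter on dim probe sets, other empirical Bayes settings, only the groups compared, values within lots, and leaving out each array. Named were the 3 receptor genes, all measured genes of the gibberellin list and the 5 genes most like each receptor gene. Members and lists were chosen with earlier results of these data known.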

Additional observations from a re-analysis of the deposited data

How the results depend on the processing

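Of 390 tested values of the receptor genes and their differences under alternative settings, 352 kept their direction and their side of the threshold, 4 lost a call and 34 changed sign, none of them called; the cause was not tested. Of 54 values within a lot, which have no test, 8 had the sign opposite to that over both lots. With the replicate block for lot, no receptor gene gained or lost a call (GID1B in mock against Landsberg erecta at 1.11, adjusted p = 0.00585), and the count for the difference in dexamethasone response was 2 in place of 7. The GID1B call against Landsberg erecta was lost with a pseudocount of 50 (0.707) and ranged from 0.975 to 1.25 without single arrays.

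Equal medians turned GID1B with dexamethasone to -0.0195, with both agents against cycloheximide to 0.0102 and for the difference in dexamethasone response to 0.0298, and GID1C for that difference to 0.0753 (0.0150 with quantile normalisation). Scaling to the hybridisation controls turned GID1A to -0.00634 for 35S::LFY and 0.0307 for mock against Landsberg erecta. The difference of GID1A from GID1C in cycloheximide response became 0.0735 with a pseudocount of 1 and 0.0366 with quantile normalisation.

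Leaving out single arrays gave ranges that crossed 0 for dexamethasone against mock (GID1B -0.0318 to 0.247, GID1C -0.271 to 0.247), both agents against cycloheximide (GID1A -0.203 to 0.274, GID1B -0.392 to 0.316, GID1C -0.396 to 0.189), 35S::LFY (GID1A -0.120 to 0.163) and the difference in dexamethasone response (GID1B -0.500 to 0.209, GID1C -0.384 to 0.201). So did differences between genes: GID1A from GID1C with cycloheximide (-0.154 to 0.0352) and, with dexamethasone, GID1A from GID1B (-0.487 to 0.873) and GID1B from GID1C (-0.626 to 0.762). The dexamethasone differences pool arrays with and without cycloheximide, so leaving out 1 array makes cycloheximide unequal between the sides; within lots, which keep it equal, they were 0.16 and 0.14 for GID1A from GID1B and 0.02 and 0.16 for GID1B from GID1C.

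Counts of all called probe sets were 108 for dexamethasone against mock (1 to 142 over the alternatives), 44 for both agents against cycloheximide (2 to 56), 67 for 35S::LFY (1 to 156), 7 for the difference in dexamethasone response (0 to 7) and 1779 for mock against Landsberg erecta (731 to 2267). The adjusted permutation test between receptor genes gave 0.0857 to 0.167 for GID1B against each of the others over the alternatives; 0.05 was out of reach there, so this says nothing about stability.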
